A study of Mus musculus with 6 samples.

Results

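Cytochrome P450 genes encode haem enzymes that insert 1 atom of oxygen into their substrates. They were taken here as the rows of the colon expression table whose symbol is Cyp followed by digits, a letter and digits, with *Cyp51* left out. The rule gave 69 of the 18477 genes in the table, in 33 subfamilies. Of these, 36 genes in 21 subfamilies passed the filter on low counts and were tested, and 6 of the 69 had no count in any library. Another 5 symbols that begin with Cyp but have a different form (*Cyp2ab1*, *Cyp3a41a*, *Cyp3a41b*, *Cyp4a12a* and *Cyp4a30b*) fell outside the rule, and none of them had more than 7 counts in a library.

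Colon RNA was sequenced from male C57BL/6 mice, 6 to 8 weeks old, all of which received 2% dextran sulfate sodium (DSS), a polymer that injures the colonic epithelium, in drinking water for 7 days. The DSS group (n = 3) was gavaged with PBS for 14 days and the *B. vulgatus* group (DSS+BV, n = 3) with the gut bacterium *Bacteroides vulgatus* on the same days. Each library came from 1 mouse. No library from mice without DSS was analysed here, and the stretch of colon taken for RNA is not given in the sources used here. Libraries held between 15293276 and 17254343 expected counts, which RSEM estimates by dividing reads that match several genes. Levels are CPM, each gene's count relative to the library total, scaled with TMM factors, and log2 fold changes are for the DSS+BV group against the DSS group. The 11 colon epithelium markers were present in every library, with a summed level of 12568 to 14827 CPM in the DSS group and 15990 to 21260 CPM in the DSS+BV group.

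P450 enzymes sit in the endoplasmic reticulum, where they take electrons from cytochrome P450 reductase, or in mitochondria, where ferredoxin supplies them. Members of the CYP1, CYP2 and CYP3 families oxidise drugs, dietary compounds and arachidonic acid. Members of CYP4 hydroxylate the end of fatty acid chains, and CYP7, CYP27, CYP39 and CYP46 enzymes act on sterols on the way to bile acids. In the intestine, P450 genes are expressed mainly in epithelial cells, and several of them change along the length of the gut.

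No P450 gene passed the threshold of the study, an adjusted p-value under 0.05 with an absolute log2 fold change over 1, when edgeR's quasi-likelihood test was run over 14579 genes and adjusted by Benjamini-Hochberg. Over all tested genes, the same test called 0.0892% lower and 0% higher. Before adjustment, at a p-value under 0.05, 5 of the 36 P450 genes (13.9%) were lower, against 9.12% of all tested genes, and 2 (5.56%) were higher, against 3.4%. The 5 lower genes were *Cyp7b1*, *Cyp4v3*, *Cyp2d34*, *Cyp2d9* and *Cyp26b1*, and the 2 higher genes were *Cyp4f40* and *Cyp2j6*. With DESeq2, *Cyp7b1* alone of 51 P450 genes with an adjusted p-value was called lower and none was called higher, where 1.73% and 0.279% of all genes were called. The groups did not overlap for 6 P450 genes that were lower in the DSS+BV group (16.7%, against 11.3% of all tested genes) and for 1 that was higher (2.78%, against 6.37%). The smallest two-sided p that an exact permutation test allows for 3 mice against 3 is 0.1. In bulk tissue, fewer cells of a type and less RNA per cell cannot be told apart.

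The log2 fold changes of P450 genes were spread more widely than those of all tested genes. They ran from -2.03 for *Cyp7b1* to 3.97 for *Cyp2c66*, with 16 genes lower and 20 higher, a median of 0.17 and an interquartile range of -0.70 to 0.75. The median over all tested genes was -0.01, with an interquartile range of -0.33 to 0.19. Mice of the same group also differed more from each other in P450 levels. The within-group SD of log2(CPM + 0.5) had a median of 0.52 over the P450 genes and of 0.28 over all tested genes, and it exceeded 1 for 11 of the 36 P450 genes (30.6%), against 3.73% of all tested genes. These 11 genes were *Cyp2c55*, *Cyp2c65*, *Cyp2c66*, *Cyp2d26*, *Cyp2f2*, *Cyp2c68*, *Cyp4b1*, *Cyp4f14*, *Cyp2w1*, *Cyp2e1* and *Cyp1a1*.

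**Figure D1:**
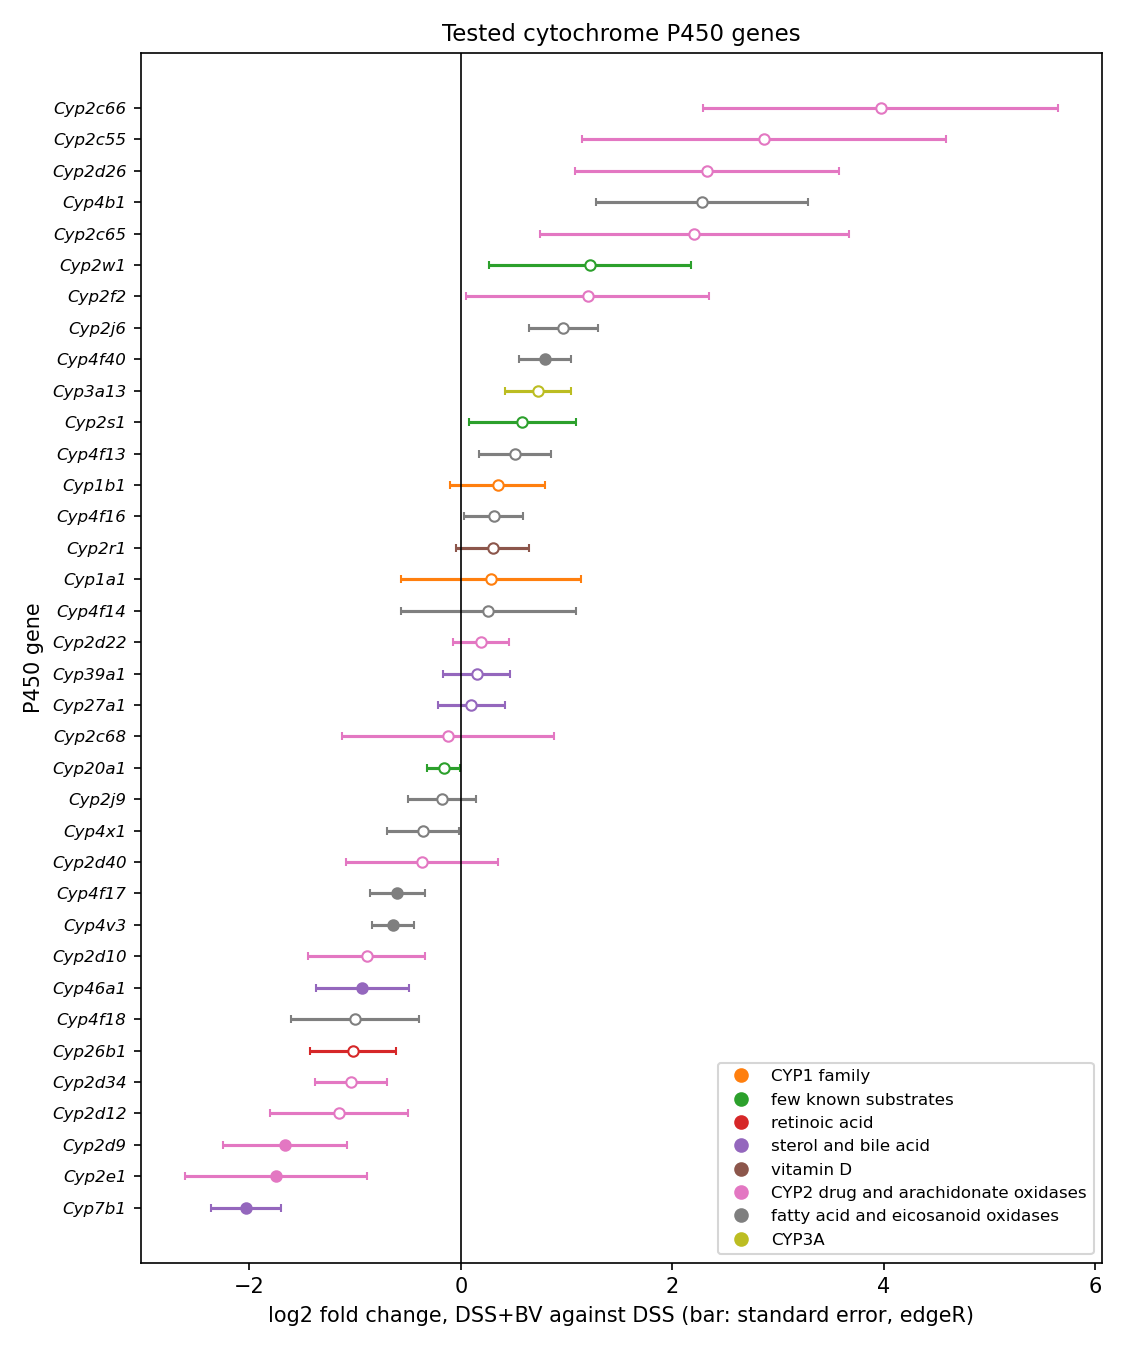
Log2 fold change (DSS+BV against DSS, x axis) of the 36 tested P450 genes (y axis), coloured by role, with the standard error of the edgeR fit as bars. Filled points mark the 7 genes whose groups did not overlap, which run from *Cyp7b1* at -2.03 to *Cyp4f40* at 0.80, whereas the highest fold changes, such as 3.97 for *Cyp2c66*, have overlapping groups and wide bars.

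The *Cyp2c* genes held the highest P450 level and the widest spread. They encode drug-metabolising enzymes, several of which also oxidise arachidonic acid, and 4 of the 9 were tested. The 3 highest libraries were DSS 2, DSS+BV 2 and DSS+BV 3 for *Cyp2c55*, *Cyp2c65* and *Cyp2c66*. Those of *Cyp2c68* were DSS 2, DSS+BV 1 and DSS+BV 2, a set that overlaps in part. The upstream sequences of these 4 genes are shown for this reason. They are the 250 bases before a transcript start in RefSeq (GRCm38.p6), at chr19:39006769-39007018 for *Cyp2c55*, chr19:39060756-39061005 for *Cyp2c65* and chr19:39113648-39113897 for *Cyp2c66*, all on the plus strand, and at chr19:39741102-39741351 on the minus strand for *Cyp2c68*. The start used for *Cyp2c55* lies at position 39007019, inside the RefSeq gene record, so the last 79 bases of its window overlap that record, whereas the other 3 windows end at the edge of theirs. Capitals mark matches to the TATA box letters TATAAA and to CAAAGTCCA, letters of a binding site of the hepatocyte nuclear factor HNF4.
Cyp2c55: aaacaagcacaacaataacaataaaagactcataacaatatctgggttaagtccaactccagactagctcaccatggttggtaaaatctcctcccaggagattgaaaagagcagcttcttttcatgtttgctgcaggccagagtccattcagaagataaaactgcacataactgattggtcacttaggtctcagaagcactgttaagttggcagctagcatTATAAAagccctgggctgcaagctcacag
Cyp2c65: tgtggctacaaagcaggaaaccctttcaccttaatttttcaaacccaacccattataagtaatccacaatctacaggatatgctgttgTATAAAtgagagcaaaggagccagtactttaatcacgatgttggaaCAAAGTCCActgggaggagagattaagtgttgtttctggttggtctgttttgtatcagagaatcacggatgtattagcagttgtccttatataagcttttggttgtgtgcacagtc
Cyp2c66: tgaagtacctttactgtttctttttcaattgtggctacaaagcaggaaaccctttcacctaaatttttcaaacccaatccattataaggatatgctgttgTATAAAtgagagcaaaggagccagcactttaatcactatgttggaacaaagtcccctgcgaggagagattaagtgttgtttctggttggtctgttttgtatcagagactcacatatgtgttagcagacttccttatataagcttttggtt
Cyp2c68: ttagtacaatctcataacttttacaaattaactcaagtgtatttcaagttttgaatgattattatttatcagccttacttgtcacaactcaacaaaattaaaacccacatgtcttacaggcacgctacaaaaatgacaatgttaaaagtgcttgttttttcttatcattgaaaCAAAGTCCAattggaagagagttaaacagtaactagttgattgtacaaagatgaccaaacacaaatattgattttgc

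The TATAAA letters began 29 bases before this start of *Cyp2c55*, 162 before that of *Cyp2c65* and 150 before that of *Cyp2c66*. The CAAAGTCCA letters began 116 bases before the start of *Cyp2c65* and 77 bases before that of *Cyp2c68*. The windows of *Cyp2c65* and *Cyp2c66* shared 94.1% of 221 aligned bases. The CAAAGTCCA letters were found in the first of these windows. The second read CAAAGTCCC at that place, so it was not matched, although only the last letter differed. Searched on both strands from 250 bases before to 50 after the start, CAAAGTCCA was present in 2 of the 29 tested P450 genes with a window in the table (6.9%), and in 0.555% of all 27025 genes with one. TATAAA was present in 10 of the 29 (34.5%) and in 15.7% of all genes. The letters GCGTG, the core of the site bound by the aryl hydrocarbon receptor, were present in 11 of the 29 (37.9%) and in 35.2% of all genes. AGGTCA, a nuclear receptor half-site, was in 2 (6.9%, against 18.1%), and its variant AGTTCA was in 3 (10.3%, against 15.7%). The HNF1 letters GTTAAT were in 4 (13.8%, against 8.24%) and the GATA letters AGATAA in 6 (20.7%, against 12.7%). These matches describe the letters of the windows only.

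*Cyp2c55* (Entrez gene 72082, chr19:39006940-39042690), which encodes an arachidonic acid hydroxylase of the intestine, was at 8.32, 832.6 and 64.3 CPM in DSS 1 to 3. It was at 133, 2714 and 3776 CPM in DSS+BV 1 to 3. The groups overlapped, since DSS 2 lay above DSS+BV 1, and the highest library was 453.7 times the lowest. Between the groups, the log2 fold change was 2.87 ± 1.72 (SE, n = 3 per group, adjusted p = 0.534 in edgeR with Benjamini-Hochberg adjustment). With 1 library left out, it ranged from 2.24 without DSS+BV 3 to 5.92 without DSS 2. Per kilobase of transcript, *Cyp2c55* had the highest mean level of all P450 genes, at 628.9 CPM per kb.

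*Cyp2c65*, the next *Cyp2c* gene along chromosome 19, had the same order of libraries. Its levels were 6.59, 203.5 and 21 CPM in DSS 1 to 3 and 24.4, 462.9 and 579.8 CPM in DSS+BV 1 to 3. The log2 fold change of *Cyp2c65* was 2.21 ± 1.46 (SE), and it ranged from 1.67 without DSS 1 to 4.68 without DSS 2. *Cyp2c66*, the third gene in the row, was at 0.0599, 1.55 and 0.0582 CPM in the DSS libraries and at 0.066, 11.5 and 14.7 CPM in the DSS+BV libraries. DSS 2, DSS+BV 2 and DSS+BV 3 were thus the 3 highest libraries for each of these neighbours. The log2 fold change of *Cyp2c66* was 3.97 ± 1.68 (SE), the highest of any tested P450 gene, with an adjusted p of 0.401 in edgeR. It ranged from 3.37 without DSS+BV 3 to 7.05 without DSS 2. The coding sequences of *Cyp2c65* and *Cyp2c66* were 96.3% identical, and both had counts that were not whole numbers, so the division of reads between them is uncertain.

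Among the *Cyp2c* genes taken here, *Cyp2c67* is the next after *Cyp2c66*, 422087 bases further along. *Cyp2c68*, *Cyp2c40*, *Cyp2c69*, *Cyp2c70* and *Cyp2c23* follow in this order. Any *Cyp2c* gene without a row in the expression table was not placed, so this distance need not be free of such genes. *Cyp2c68* was at 4.37, 66.8 and 13.3 CPM in DSS 1 to 3 and at 46.1, 23.5 and 8.35 CPM in DSS+BV 1 to 3. DSS 2 and DSS+BV 1 were the highest libraries, DSS+BV 3 was below DSS 3, and the groups overlapped. The log2 fold change was -0.12 ± 1 (SE), and it ranged from -0.81 without DSS+BV 1 to 1.55 without DSS 2. *Cyp2c69*, which was not tested, had 1, 76 and 1 counts in the DSS libraries and 17, 5 and 10 counts in the DSS+BV libraries. *Cyp2c67* had 0, 13 and 1 counts in the DSS libraries and 11, 5 and 3 in the DSS+BV libraries. As for *Cyp2c68*, their highest library was DSS 2 and the second was DSS+BV 1. The coding sequence of *Cyp2c68* was 97.2% identical to that of *Cyp2c67* and 91.2% identical to that of *Cyp2c69*. Each of these genes had counts that were not whole in at least 1 library, so the division of reads between them is uncertain too. *Cyp2c40*, *Cyp2c70* and *Cyp2c23* had at most 15 counts in a library.

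**Figure D2:**
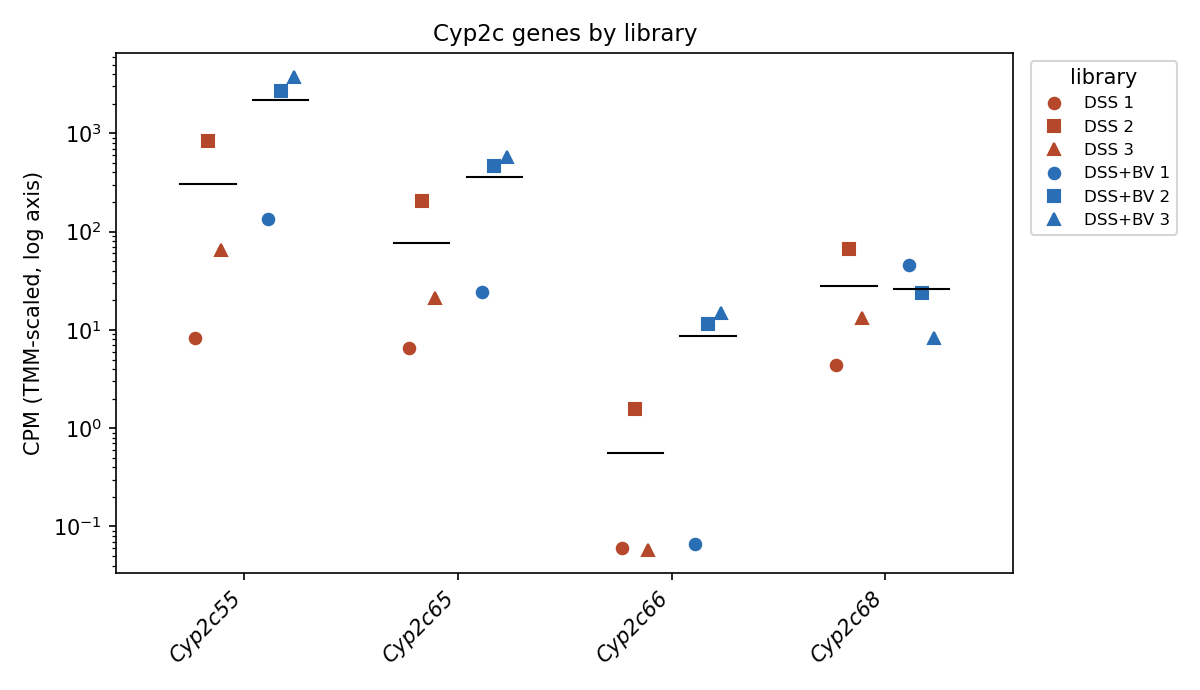
Level of the 4 tested *Cyp2c* genes (x axis) in each library, in TMM-scaled CPM on a log axis, with a black line at the group mean. *Cyp2c55*, *Cyp2c65* and *Cyp2c66* are highest in DSS+BV 2, DSS+BV 3 and DSS 2, and *Cyp2c68* is highest in DSS 2 and DSS+BV 1, at 66.8 and 46.1 CPM.

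Summed over its 9 genes, the *Cyp2c* subfamily was at 20.1, 1111 and 99.2 CPM in DSS 1 to 3 and at 206.8, 3213 and 4380 CPM in DSS+BV 1 to 3. The log2 ratio of the group means was 2.66, and it was between 2.06 and 5.45 with 1 library left out. Relative to the summed epithelium markers of the same library, it was 2.36. Markers of colon position also differed between these libraries. The 6 distal colon genes in the table, Hox genes of the end of the gut, summed to 344.1, 58.9 and 192.3 CPM in DSS 1 to 3 and to 340.5, 165.7 and 14 CPM in DSS+BV 1 to 3. The lowest distal sums were in DSS+BV 3, where *Hoxb13* and *Hoxd12* were at 0, and in DSS 2, where *Hoxd12* was at 0. The sums were made up mainly of *Hoxb13* and *Hoxd13*, and not every gene of the list was low in DSS+BV 3: *Hoxd10* was at 8.41 CPM and *Hoxd11* at 5.31 CPM there, against 0.124 to 8.5 CPM and 0.249 to 8.2 CPM in the DSS libraries. The low ends of these 2 ranges were both DSS 2, where *Hoxd13* was also low, at 1.06 CPM, whereas *Hoxa13* was at its highest there, at 21 CPM. The 8 small intestine genes, of which 4 were tested, summed to 5.39, 70.2 and 9.9 CPM in the DSS libraries and to 11.7, 52 and 127.5 CPM in the DSS+BV libraries. *Alpi* made up most of the sum in DSS 2, DSS+BV 2 and DSS+BV 3, at 64.2, 39.5 and 86.7 CPM. *Sis* was also highest in these libraries, whereas *Fabp6* was highest in DSS+BV 1, at 7.26 CPM, and *Mttp* was lowest in DSS+BV 2, at 1.91 CPM. The differentiated colonocyte genes, 8 of 8 present in every library, summed to 5412, 10770 and 10375 CPM in the DSS libraries and to 7563, 20918 and 20774 CPM in the DSS+BV libraries. Most of the difference came from *Car1*, at 824.8 to 1041 CPM in the DSS libraries and 924.4, 10453 and 8702 CPM in the DSS+BV libraries, while *Car4* and *Aqp8* had log2 fold changes of -1.10 and -1.03 and *Slc26a3* was lowest in DSS+BV 3, at 145.6 CPM. The part of colon position or of colonocyte differentiation in the *Cyp2c* levels was not tested.

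The 3 highest libraries of *Cyp2c55* were also the 3 highest for other P450 genes, though not always in the same order. DSS 2, DSS+BV 2 and DSS+BV 3 held the 3 highest values of 12 of the 36 tested P450 genes (33.3%), and of 11.4% of all tested genes. These libraries were singled out after the *Cyp2c55* values had been seen, so *Cyp2c55* is among the 12 by construction. *Cyp2c65* and *Cyp2c66* are also counted, and their match had been seen as well. The share of P450 genes is therefore raised by the choice of libraries and is not a test. Besides the 3 neighbours on chromosome 19, the genes were *Cyp2d26*, *Cyp2j6*, *Cyp2s1*, *Cyp2w1*, *Cyp3a13*, *Cyp4b1*, *Cyp4f13*, *Cyp4f14* and *Cyp4f16*. The other 3 libraries held the 3 highest values of *Cyp2d12* and *Cyp4f18* (5.56%), and of 11.7% of all tested genes.

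The *Cyp2d* genes, which encode oxidases of basic drugs, had log2 fold changes from -1.66 for *Cyp2d9* to 2.33 for *Cyp2d26*, and none of the 7 tested passed. *Cyp2d34* (Entrez gene 223706), the highest of the subfamily at 74.4 CPM per kb, was at 109.5, 163.4 and 225.6 CPM in DSS 1 to 3 and at 113.5, 67.5 and 61.1 CPM in DSS+BV 1 to 3. Only DSS+BV 1 lay within the range of the DSS group. Its log2 fold change was -1.04 ± 0.34 (SE), with an adjusted p of 0.341 in edgeR. *Cyp2d9* was at 25.1, 22.6 and 76.6 CPM in the DSS libraries and at 21, 10.1 and 8.28 CPM in the DSS+BV libraries. Its groups did not overlap, but DSS 2 and DSS+BV 1 were close, and DSS 3 stood far above the others. Its log2 fold change was -1.66 ± 0.59 (SE, adjusted p = 0.358 in edgeR), and it was -0.86 without DSS 3.

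*Cyp2d10* and *Cyp2d12* had log2 fold changes of -0.89 and -1.15, with DSS 3 the highest library for both and DSS+BV 3 the lowest, and both were at -0.23 without DSS 3. *Cyp2d26* was at 3.59, 44.5 and 4.78 CPM in DSS 1 to 3 and at 12.6, 64.5 and 188.9 CPM in DSS+BV 1 to 3. DSS+BV 3 was the highest library for this gene, whereas it was the lowest for *Cyp2d34*, *Cyp2d9*, *Cyp2d10* and *Cyp2d12*. The log2 fold change of *Cyp2d26* was 2.33 ± 1.25 (SE, adjusted p = 0.494 in edgeR), and it ranged from 1.14 without DSS+BV 3 to 4.41 without DSS 2. *Cyp2d22* was at 18.4 to 29.5 CPM in the DSS group and at 21.8 to 37.2 CPM in the DSS+BV group, with a log2 fold change of 0.19. *Cyp2d40*, at most 2.57 CPM in a library, had a log2 fold change of -0.37. Summed over 8 genes the subfamily was at 194.2, 313.6 and 469.8 CPM in the DSS libraries and at 227.2, 209.3 and 314.8 CPM in the DSS+BV libraries, a log2 ratio of -0.38 with overlapping groups.

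The coding sequence of *Cyp2d9* was 92.5% identical to that of *Cyp2d10* and 92.1% identical to that of *Cyp2d12*, and each of the 7 tested *Cyp2d* genes had counts that were not whole in at least 1 library. *Cyp2d26* was less similar to these genes, at 80.7% to 81.3% identity with *Cyp2d9*, *Cyp2d10*, *Cyp2d12* and *Cyp2d34*.

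**Figure D3:**
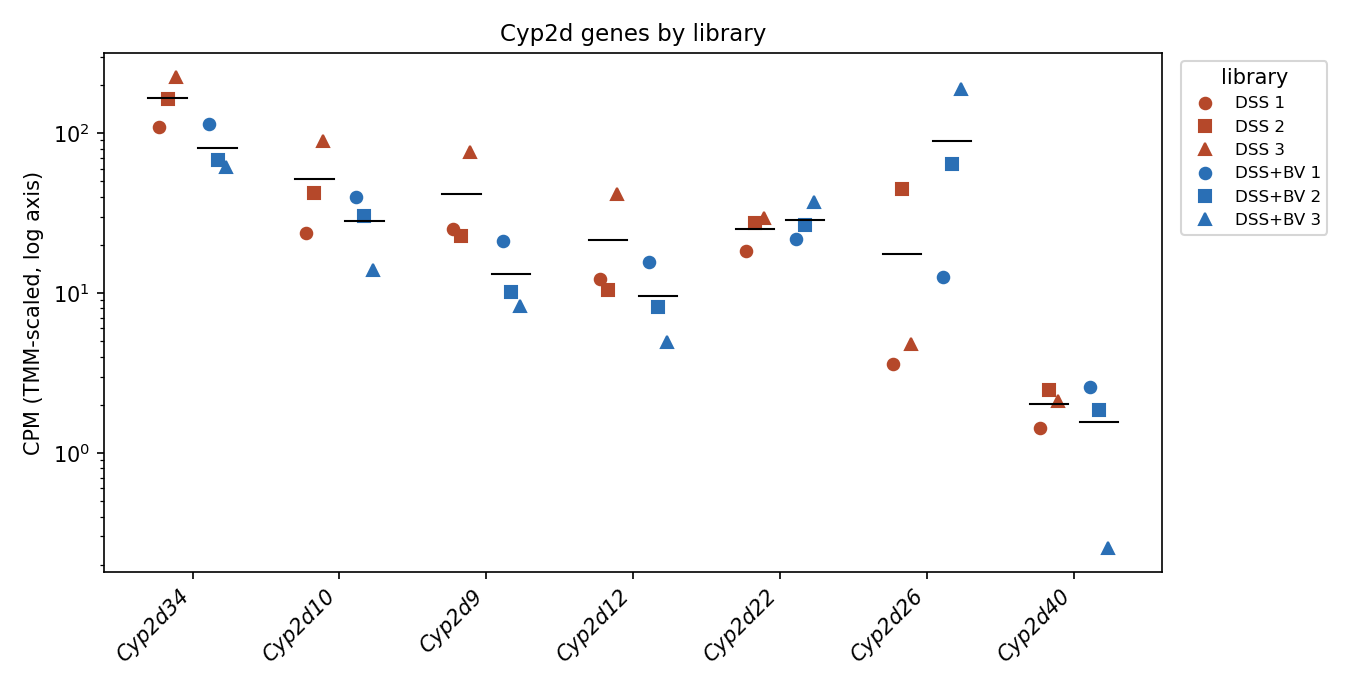
Level of the 7 tested *Cyp2d* genes (x axis) in each library, in TMM-scaled CPM on a log axis, with a black line at the group mean. *Cyp2d34*, *Cyp2d10*, *Cyp2d9* and *Cyp2d12* are lowest in DSS+BV 3, and *Cyp2d26* is highest there, at 188.9 CPM.

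*Cyp2e1*, which encodes an oxidase of ethanol and other small molecules, was at 5.63, 7.65 and 16.1 CPM in DSS 1 to 3 and at 5.34, 3.06 and 0.316 CPM in DSS+BV 1 to 3. The groups did not overlap, although DSS 1 and DSS+BV 1 nearly met. For *Cyp2e1* the log2 fold change was -1.75 ± 0.86 (SE, adjusted p = 0.456 in edgeR), and it ranged from -2.52 without DSS+BV 1 to -1.19 without DSS 3. *Cyp2f2* was at 1.5, 5.04 and 3.61 CPM in the DSS libraries and at 16.2, 6.94 and 0.19 CPM in the DSS+BV libraries. The DSS+BV group held both the highest and the lowest library, and the log2 fold change was 1.2 ± 1.15 (SE). Without DSS+BV 1, the log2 ratio of the group means was 0.08. *Cyp2b10*, a classical target of the nuclear receptor CAR, had 1 and 9 counts in DSS+BV 2 and 3 and none in the other libraries. *Cyp2a5*, *Cyp2a12* and *Cyp2a22* had at most 3 counts in a library.

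The CYP3A genes encode oxidases of many drugs and steroids. *Cyp3a13* (Entrez gene 13113), a form expressed in the intestine and 1 of 6 *Cyp3a* genes in the table, was the only one tested. It was at 53.9, 106.6 and 95.2 CPM in DSS 1 to 3 and at 98.1, 148.1 and 177.3 CPM in DSS+BV 1 to 3. Only DSS 2 reached the range of the DSS+BV group. The fitted log2 fold change was 0.73 ± 0.32 (SE, adjusted p = 0.41 in edgeR). In each of the 6 libraries the *Cyp3a13* count was not a whole number. *Cyp3a44* had 0, 1 and 0 counts in the DSS libraries and 0, 57 and 104 counts in the DSS+BV libraries, *Cyp3a25* had counts only in DSS+BV 2 and 3, at 10 and 45, and *Cyp3a11* only in the same libraries, at 3 and 16. The coding sequences of *Cyp3a11* and *Cyp3a44* were 94.9% identical. *Cyp3a57* and *Cyp3a59* had at most 1 count in a library.

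Genes for fatty acid and eicosanoid oxidases numbered 21, of which 11 were tested, with 5 lower, 6 higher and a median log2 fold change of 0.26. *Cyp4f40* (Entrez gene 631304), a member of the CYP4F subfamily of omega-hydroxylases, was at 72.2, 79.3 and 46.8 CPM in DSS 1 to 3 and at 89.2, 131.1 and 124.9 CPM in DSS+BV 1 to 3. It was the only tested P450 gene for which every DSS+BV library was above every DSS library. Its log2 fold change was 0.80 ± 0.25 (SE, adjusted p = 0.329 in edgeR), and it stayed between 0.60 and 0.97 with 1 library left out. *Cyp2j6*, a member of the CYP2J subfamily, was at 40, 65.9 and 49.4 CPM in the DSS libraries. In the DSS+BV libraries it was at 59.4, 119.3 and 125.8 CPM. Only DSS 2 lay above DSS+BV 1, and the log2 fold change was 0.97 ± 0.32 (SE, adjusted p = 0.345 in edgeR).

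*Cyp4v3*, the mouse form of the fatty acid hydroxylase CYP4V2, was at 18.3, 19.6 and 25.5 CPM in the DSS libraries and at 15.3, 12 and 13.5 CPM in the DSS+BV libraries. *Cyp4f17* was at 5.09, 7.34 and 7.4 CPM in the DSS libraries and at 3.96, 4.14 and 4.99 CPM in the DSS+BV libraries. Neither gene overlapped between the groups, and the log2 fold changes were -0.64 ± 0.20 and -0.60 ± 0.26 (SE). *Cyp4f18*, which acts on leukotriene B4 in neutrophils, was at 16.4, 6.53 and 23.4 CPM in the DSS libraries and at 13.8, 4.52 and 4.8 CPM in the DSS+BV libraries. Its groups overlapped, with a log2 fold change of -1 ± 0.61 (SE), which ranged from -1.72 without DSS+BV 1 to -0.57 without DSS 3. The summed level of 8 neutrophil markers was 139 to 183.3 CPM in the DSS group and 13.6 to 27 CPM in the DSS+BV group, with *S100a8*, *S100a9* and the other 6 all lower in the DSS+BV group. The 10 macrophage and monocyte markers summed to 1285, 810.9 and 1791 CPM in the DSS libraries and to 1254, 529.5 and 488 CPM in the DSS+BV libraries. For the 6 B cell markers the sums were 664.6, 549.1 and 1597 CPM and 1132, 265.5 and 243.1 CPM. Like *Cyp4f18*, both of these sums were highest in DSS 3, DSS 1 and DSS+BV 1. The part of neutrophils, macrophages or B cells in the *Cyp4f18* values was not tested.

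*Cyp4f14*, another leukotriene B4 hydroxylase and the highest *Cyp4f* gene per kilobase at 56.6 CPM per kb, was at 16.6, 227.5 and 69.8 CPM in DSS 1 to 3 and at 75.1, 133 and 168.9 CPM in DSS+BV 1 to 3. The DSS group held both the lowest and the highest library. The log2 fold change was 0.26 ± 0.83 (SE), and it ranged from -0.24 without DSS 1 to 1.54 without DSS 2. *Cyp4b1*, an oxidase of fatty acids and of some toxins, was at 2.22, 6.71 and 3.14 CPM in the DSS libraries and at 2.24, 12 and 44.4 CPM in the DSS+BV libraries. DSS+BV 1 lay at the level of DSS 1, and the log2 fold change of 2.28 ± 1 (SE) was 0.83 without DSS+BV 3. *Cyp4f13* and *Cyp4f16* had log2 fold changes of 0.51 and 0.31, and *Cyp2j9* and *Cyp4x1* of -0.18 and -0.36. Summed over 9 genes, the *Cyp4f* subfamily was at 165 to 422.8 CPM in the DSS group and at 255.8 to 436.2 CPM in the DSS+BV group. The log2 ratio was 0.39, and 0.02 relative to the epithelium markers. Of the 10 genes of this role that were not tested, *Cyp2j12* and *Cyp4a14* had no count, and the others had at most 11 counts in a library.

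**Figure D4:**
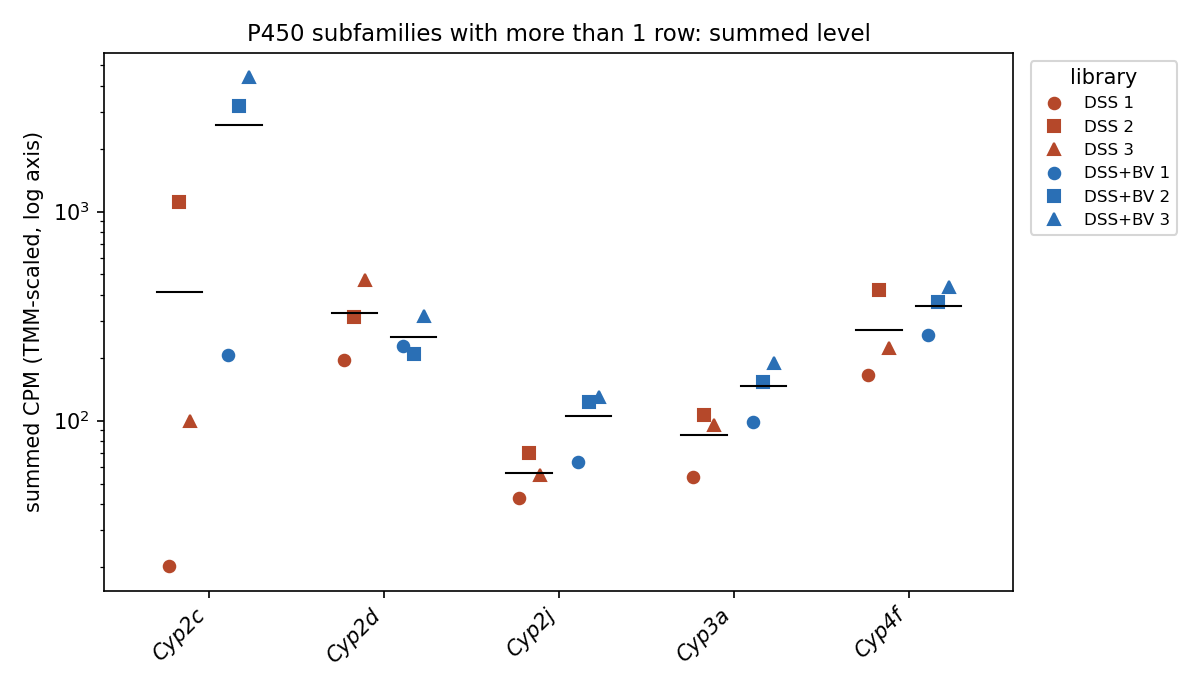
Summed level of the *Cyp2c*, *Cyp2d*, *Cyp2j*, *Cyp3a* and *Cyp4f* subfamilies (x axis) in each library, in TMM-scaled CPM on a log axis, with a black line at the group mean. The *Cyp2c* sum spans 20.1 to 4380 CPM, and the groups overlap for all 5 subfamilies.

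*Cyp7b1* (Entrez gene 13123, chr3:18071944-18243890), an oxysterol hydroxylase of the alternative bile acid pathway, had the lowest log2 fold change of the tested P450 genes. It was at 5.45, 8.83 and 10.7 CPM in DSS 1 to 3 and at 1.78, 2.29 and 2.02 CPM in DSS+BV 1 to 3. The groups did not overlap. The gap between the lowest DSS library and the highest DSS+BV library was wider than the range of the DSS+BV group and narrower than that of the DSS group. The means were 8.33 ± 2.67 and 2.03 ± 0.26 CPM (SD, n = 3 per group), a 4.1-fold lower mean in the DSS+BV group. The log2 fold change was -2.03 ± 0.33 (SE), with an adjusted p of 0.137 in edgeR and 3.43e-05 in DESeq2. With 1 library left out, this value was between -2.26 and -1.81, and relative to the epithelium markers the log2 ratio of the means was -2.43.

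Among the other sterol genes, *Cyp46a1*, a cholesterol hydroxylase best known from neurons, was at 0.659, 0.808 and 0.99 CPM in the DSS libraries and at 0.264, 0.51 and 0.506 CPM in the DSS+BV libraries. The groups did not overlap, at levels near 1 CPM, and the log2 fold change was -0.93 ± 0.44 (SE, adjusted p = 0.442 in edgeR). *Cyp27a1*, a mitochondrial sterol hydroxylase, was at 19.1 to 45.9 CPM in the DSS group and at 30 to 35.1 CPM in the DSS+BV group. *Cyp39a1*, an oxysterol hydroxylase, was at 9.78 to 22.6 CPM and at 15.7 to 20.6 CPM. Both overlapped, with log2 fold changes of 0.10 and 0.15. *Cyp7a1*, the first enzyme of the classical bile acid pathway, had no count in any library, and *Cyp8b1* had 1 count in 1 library. Marker sums of fibroblasts (3625 to 3887 CPM against 1309 to 1866 CPM), endothelium (321.2 to 411.1 against 213.8 to 286.5) and enteric neurons and glia (46.8 to 148.7 against 30.4 to 31.5) were also lower in the DSS+BV group, with all 7, 6 and 7 genes of these lists lower. The part of these cell types in the *Cyp7b1* and *Cyp46a1* values was not tested.

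**Figure D5:**
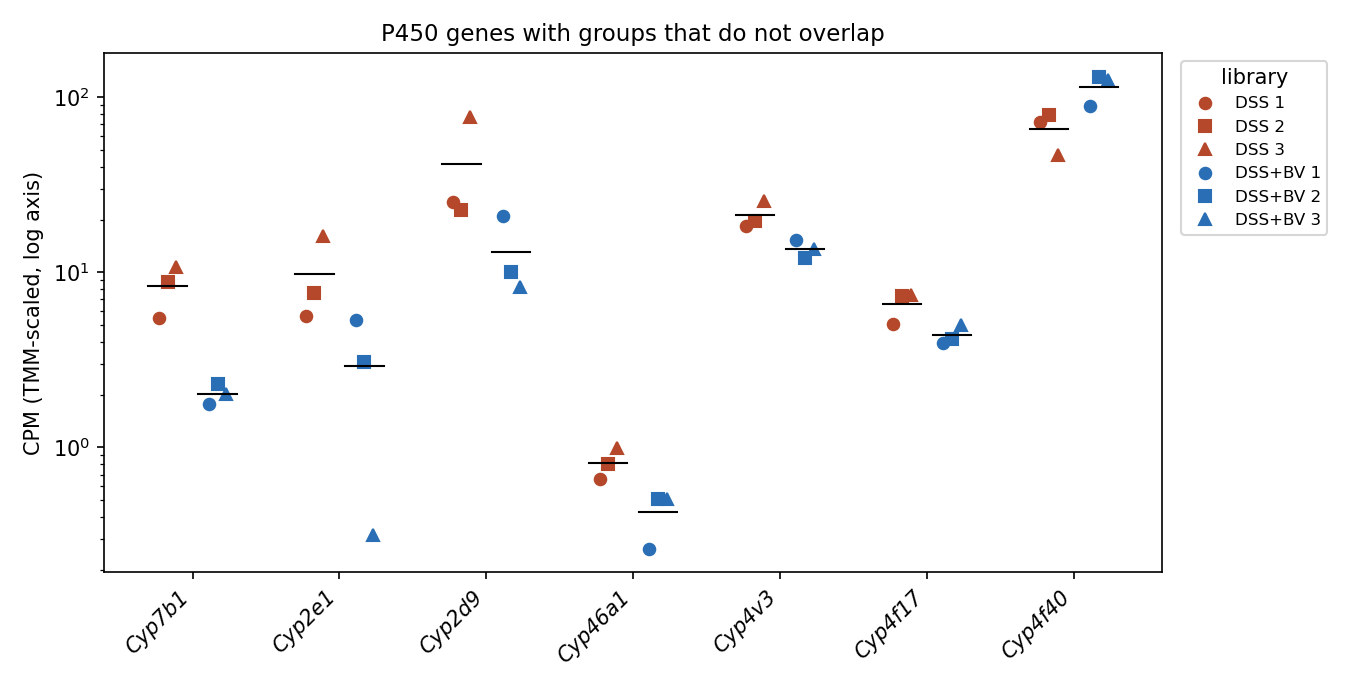
Level of the 7 tested P450 genes whose groups did not overlap (x axis) in each library, in TMM-scaled CPM on a log axis, with a black line at the group mean. *Cyp7b1* shows the widest separation relative to the spread within groups, with 5.45 to 10.7 CPM in the DSS group and 1.78 to 2.29 CPM in the DSS+BV group, and *Cyp4f40* is the one gene that is higher in the DSS+BV group.

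*Cyp26b1*, which clears retinoic acid, was at 10.7, 5.35 and 14.1 CPM in DSS 1 to 3 and at 3.83, 4.52 and 6.51 CPM in DSS+BV 1 to 3. Only DSS 2 lay within the range of the DSS+BV group, and the log2 fold change was -1.02 ± 0.41 (SE, adjusted p = 0.389 in edgeR). *Cyp26a1*, of the same function, had at most 2 counts in a library. *Cyp2r1*, a vitamin D 25-hydroxylase, was at 1.16 to 1.38 CPM in the DSS group and 1.14 to 1.98 CPM in the DSS+BV group. *Cyp27b1*, which makes the active hormone, had at most 4 counts in a library and was not tested. Of the 3 steroid hormone genes, *Cyp11a1* and *Cyp21a1* had at most 11 counts in a library and *Cyp17a1* had none.

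The CYP1 genes, targets of the aryl hydrocarbon receptor, were low. *Cyp1a1* was at 5.21, 0.311 and 1.81 CPM in DSS 1 to 3 and at 4.42, 2.1 and 2.47 CPM in DSS+BV 1 to 3, so the DSS group held both the highest and the lowest library. *Cyp1b1* was at 1.51 to 1.62 CPM in the DSS group and at 1.26 to 3.31 CPM in the DSS+BV group. The log2 fold changes were 0.29 ± 0.85 and 0.35 ± 0.45 (SE). Of the genes with few known substrates, *Cyp20a1* was the steadiest P450 gene between mice, at 18.9 to 24.2 CPM in all 6 libraries with a log2 fold change of -0.16 ± 0.16 (SE). *Cyp2w1*, known from fetal gut and colon tumours, was at 1.92, 13.2 and 0.932 CPM in the DSS libraries and at 5.8, 13.6 and 17.8 CPM in the DSS+BV libraries. *Cyp2s1*, an epithelial form, was at 28.3, 110.2 and 40.5 CPM and at 65.1, 91.4 and 111.1 CPM. DSS 2 lay within the DSS+BV range for both, and their log2 fold changes were 1.22 ± 0.96 and 0.58 ± 0.51 (SE). With 1 library left out, that of *Cyp2w1* ranged from 0.72 without DSS 3 to 3.14 without DSS 2. That of *Cyp2s1* ranged from 0.25 without DSS 1 to 1.38 without DSS 2. *Cyp2t4* had no count.

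Genes that act with P450 enzymes were followed in 6 lists of 58 genes, of which 54 were tested. edgeR called none of the 54. DESeq2 called 1 lower and 1 higher, where 1.73% and 0.279% of all genes were called, and their median log2 fold change was 0.09, beside -0.01 over all tested genes. The groups did not overlap for 3 genes that were lower and 5 that were higher in the DSS+BV group, where 11.3% and 6.37% of all tested genes did not overlap. The medians were -0.02 for the aryl hydrocarbon receptor genes, 0.22 for xenobiotic and lipid receptors, 0.11 for redox partners, 0.05 for haem metabolism, -0.70 for P450 enzymes outside the name rule and 0.06 for enzymes that act on P450 products. *Hmox1*, which breaks down the haem that P450 enzymes need, was at 37.6, 31.2 and 44.5 CPM in the DSS libraries and at 14.5, 11.2 and 10.2 CPM in the DSS+BV libraries (log2 fold change -1.66, adjusted p = 0.0833 in edgeR and 3.3e-08 in DESeq2). *Cyp51*, the sterol demethylase of cholesterol synthesis, was at 121, 146.2 and 84 CPM in the DSS libraries and at 341.4, 294.3 and 192.6 CPM in the DSS+BV libraries (log2 fold change 1.24, adjusted p = 0.243 in edgeR and 0.00559 in DESeq2). *Hnf4a*, an activator of many P450 genes, was at 513.6 to 707.9 CPM and at 803.5 to 1019 CPM, with an adjusted p of 0.329 in edgeR. *Por*, the electron donor of microsomal P450 enzymes, overlapped between the groups with a log2 fold change of 0.55, and *Nr1i2* and *Ahr*, which encode the xenobiotic receptor PXR and the aryl hydrocarbon receptor, had values of 0.22 and -0.15.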

How the data were processed

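Colon RNA of 6 mice (3 DSS, 3 DSS+BV) was sequenced by the authors on a DNBSEQ-T7 instrument, with 1 library per mouse. The authors deposited expected counts per gene, which RSEM estimates, without scaling between libraries. The submitters' processing notes name HISAT2 2.1.0, Bowtie2 2.2.5, RSEM 1.2.8 and GRCm38.p6. Reads shared between near-identical genes were divided, and 17 of the 69 P450 genes (13 of those tested) had a count that was not whole (tolerance 1e-06). Groups followed the sample labels.

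Expected counts were rounded, genes were kept with filterByExpr (minimum count 10, minimum total 15), and groups were compared over the whole table with edgeR 4.0.16 (TMM factors, quasi-likelihood test, Benjamini-Hochberg adjustment) in R 4.3.3. The study used DESeq2, which was an alternative here (1.42.0). The biological coefficient of variation was 32.1%. The scripts were tested on simulated data. A gene's level per kilobase used GENCODE transcript lengths, coding sequence identity came from global alignment with Biopython 1.88, and coordinates and promoter windows came from RefSeq (GRCm38.p6), in which 55 of the 69 genes had a window. Subfamily levels are sums of CPM, with no test.

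Named genes are those called by edgeR or DESeq2, those with groups that did not overlap, the 20 with the highest mean level, the extremes of each role group and genes of the pathway lists. Other P450 genes were described by count, range or library values, and *Cyp2c67*, *Cyp2c69*, *Cyp2f2*, *Cyp2j9*, *Cyp2d40*, *Cyp4x1*, *Cyp3a11*, *Cyp3a25*, *Cyp3a44*, *Cyp2b10* and the other genes with low counts were named after their values had been seen. The members and lists were chosen with earlier results of these data known. Alternatives were DESeq2, RLE and upper-quartile factors, 2 other filters, a robust fit, the replicate block, no limit on the fold change, other scales for subfamily sums, and each library left out in turn.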

Additional observations from a re-analysis of the deposited data

How the results depend on the processing

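No P450 gene was called by edgeR under any setting tried, and DESeq2 called 1 gene lower, *Cyp7b1*. The adjusted p of *Cyp7b1* in edgeR was between 0.123 and 0.679 over the alternatives, and its log2 fold change between -2.26 and -1.81. With every gene with a count kept, the groups did not overlap for 2 P450 genes with higher DSS+BV values (*Cyp4f40* and *Cyp27b1*, which had at most 4 counts in a library). The counts of genes that did not overlap depended on single libraries: with 1 library left out, 7 to 11 were lower and 1 to 12 were higher. Fewer libraries overlap less often, and over all genes these shares were 12.8% to 21.4% and 7.52% to 18%. Without DSS 2, 11 of 39 were higher (28.2%, against 17.2% of all genes), among them *Cyp2c55*, *Cyp2c65*, *Cyp2c66* and *Cyp2d26*. Without DSS+BV 1, 12 of 39 were higher (30.8%, against 14.6%) and 11 lower (28.2%, against 21.4%). Without DSS 1, 10 of 40 were lower (25%, against 19.2%) and 2 higher (5%, against 18%). Without DSS+BV 2, 1 of 40 was higher (2.5%, against 7.52%). Of the 32 named tested genes, these changed direction with 1 library left out: *Cyp1a1* (-0.20 to 1.48), *Cyp1b1* (-0.23 to 0.59), *Cyp27a1* (-0.15 to 0.50), *Cyp2c68* (-0.81 to 1.55), *Cyp2d22* (-0.05 to 0.35), *Cyp39a1* (-0.12 to 0.45) and *Cyp4f14* (-0.24 to 1.54). With the replicate block, *Cyp2c68* was at 0.17 in place of -0.12, the only change of direction among 223 values from other fits. The cause was not tested. Same-numbered mice had correlations of 0.267, 0.255 and -0.296 in their deviations from the group means, and other pairs had correlations from -0.572 to 0.484. These values cannot decide whether the numbers pair the mice, because deviations within a group of 3 depend on each other. The replicate block lowered the calls over all genes from 13 to 0. The filter on low counts left 33 of the 69 P450 genes untested.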
